A study of Homo sapiens with 9 samples.

Results

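The response of K562 cells to 25 µM hemin was measured on 1 array of hemin-treated cells, set against 2 arrays of untreated cells, which are 3 of the 9 expression arrays of the series. K562 is a human myeloid leukemia cell line, and hemin, the oxidized form of heme, is used to push it toward red cell features. The 25 µM array was the one whose title gives that dose, and its description calls the concentration low, while the protocol text shared by all samples names hemin at 50 µM alone. The 50 µM hemin array was left out of every comparison, and the arrays of K562 cells with DAC or PMA and those of HEL cells, another leukemia line, entered no comparison either. All cells grew in RPMI1640 medium with serum, and the untreated cells received no agent. The labels do not give the length of the hemin exposure for these arrays, and they do not say whether the untreated arrays came from separate cultures. The question was which genes lay beyond both untreated arrays after the low dose.

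Free heme is a pro-oxidant, and cells meet it at several levels. The transcription factor NRF2 switches on genes that make glutathione, supply NADPH and detoxify reactive compounds, and heme releases some of the same genes from the repressor BACH1. Damaged proteins call up heat shock chaperones and the proteasome, and in K562 cells hemin also induces embryonic and fetal globin genes.

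Expression was read as log2 values made with GCRMA, on which 1 unit is a doubling. A gene was called higher or lower when the 25 µM value lay over 1.5-fold beyond the nearer of the 2 untreated values. A value under 5 was read as too dim to measure, but it did not bar a call. Of the genes tested, 447 were under 5 on all 3 arrays. Of 9890 genes tested, 423 were called higher (4.28%) and 384 lower (3.88%). These shares are the background against which each gene list is read. The lists were written with earlier results of these data known, so a share above this background is no independent support for a list. The hemin value lay above both untreated values in 33% of genes, below both in 30.4% and between them in 36.6%. In limma, 0 genes had an adjusted p under 0.05. The number of genes with an unadjusted p under 0.05 was below the count that chance alone would give. The test took each gene's own spread from the untreated pair alone, with 1 residual degree of freedom. It assumed that the single hemin array varies like that pair, and it drew each spread toward a value shared by all genes. Standard errors given below thus hold no spread between hemin cultures. Where the untreated values were identical, as in OSGIN1, the standard error was still 0.168, which comes from the other genes. No difference between hemin and untreated cells reported here passed limma's test, and "called" refers to the 1.5-fold rule only.

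The untreated arrays were over 1.5-fold apart in 2417 genes, with a median absolute difference of 0.31. Across genes the hemin array correlated with untreated replicate 2 at 0.976 and with untreated replicate 1 at 0.963, while the untreated arrays correlated with each other at 0.969. The hemin array was thus nearer to replicate 2 than the replicates were to each other. The markers fixed for K562 were present, with the erythroid factor TAL1 at 10.48 with hemin and at 9.94 and 10.28 in untreated cells, and the embryonic globin HBE1 at 14.55 with hemin and at 14.27 and 12.64 in untreated cells. The platelet markers PF4 and GP9 lay at the lowest value of the arrays, 2.25, in all 3. Of 16 monocyte and granulocyte genes 2 were tested and 0 called, with LYZ, lysozyme, at 8.19 with hemin and at 7.19 and 8.64 in untreated cells. Of 12 lymphocyte genes 2 were tested, and both were called lower. The T cell gene CD3D was at 9.78 with hemin and at 10.42 and 11.01 in untreated cells, and CD3G was under 5 on all 3 arrays.

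The promoters of a few members are shown first, because they carry the short words through which the factors named above are known to act. The sequences come from RefSeq (GRCh38.p14) and run 5′ to 3′ on the gene's strand, with positions counted back from the annotated start. The antioxidant response element, the site of NRF2 and BACH1 with their small MAF partners, was searched as TGACTCAGC and TGAGTCAGC, on both strands, in the 250 bases before the start. It was found in 0.791% of all 27305 promoters and in 2 of the 8 searched genes of the glutathione, thioredoxin and NADPH list that were called higher. It was found in 0 of the 7 called detoxification genes searched, 0 of the 2 called regulators and 0 of the 3 called heme and iron genes. Those holding it were ME1 (chr6:83431130-83431238, minus strand) and OSGIN1 (chr16:83953091-83953199, plus strand), shown with the element in capitals.
ME1: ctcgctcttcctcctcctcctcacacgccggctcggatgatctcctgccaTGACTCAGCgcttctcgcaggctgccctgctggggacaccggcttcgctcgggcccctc
OSGIN1: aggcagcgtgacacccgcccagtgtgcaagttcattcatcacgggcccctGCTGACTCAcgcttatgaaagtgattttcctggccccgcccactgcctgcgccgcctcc
The element lay at -137 to -129 in ME1 and, on the opposite strand, at -99 to -91 in OSGIN1. GSTP1, a glutathione transferase that was not called, also held it, at -66 to -58, and so did MT2A, a metallothionein gene that was called lower, at -104 to -96.

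The heat shock element, the inverted repeat bound by HSF1, was searched on both strands as 3 alternating units of GAA and TTC with NN between neighbours, and was present in 0.44% of all promoters. Of the 8 chaperone genes called higher whose promoter was searched, 1 held it. That gene was CHORDC1 (chr11:90223050-90223159, minus strand), with 3 overlapping matches from -60 to -38, all in capitals.
CHORDC1: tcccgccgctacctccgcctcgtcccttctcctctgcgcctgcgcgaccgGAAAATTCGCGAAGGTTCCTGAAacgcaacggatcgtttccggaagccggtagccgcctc
The element was also found in HSPA6 and DNAJB6, which were not called, and in SERPINH1, which was called lower.

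The metal response element, the site of the zinc sensor MTF1, was searched on both strands as TGCACNC and TGCGCNC. This short word is common, in 24.7% of all promoters and in 34% of those of the genes tested. All 3 searched metallothionein genes that were called lower held it, MT2A (chr16:56608334-56608583, plus strand) with 7 matches, MT1X (chr16:56682220-56682469, plus strand) with 4 and MT1H (chr16:56669564-56669813, plus strand) with 8, shown in capitals.
MT2A: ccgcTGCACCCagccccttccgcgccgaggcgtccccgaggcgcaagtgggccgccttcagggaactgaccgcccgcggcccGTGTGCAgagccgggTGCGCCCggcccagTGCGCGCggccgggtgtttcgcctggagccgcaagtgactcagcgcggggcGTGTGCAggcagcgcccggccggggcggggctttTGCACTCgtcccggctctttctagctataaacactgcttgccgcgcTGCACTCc
MT1X: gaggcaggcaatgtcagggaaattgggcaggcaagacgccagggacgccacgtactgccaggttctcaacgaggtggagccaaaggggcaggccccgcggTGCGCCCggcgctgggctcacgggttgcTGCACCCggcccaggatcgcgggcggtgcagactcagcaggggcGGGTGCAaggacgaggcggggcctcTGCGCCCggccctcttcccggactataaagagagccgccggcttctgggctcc
MT1H: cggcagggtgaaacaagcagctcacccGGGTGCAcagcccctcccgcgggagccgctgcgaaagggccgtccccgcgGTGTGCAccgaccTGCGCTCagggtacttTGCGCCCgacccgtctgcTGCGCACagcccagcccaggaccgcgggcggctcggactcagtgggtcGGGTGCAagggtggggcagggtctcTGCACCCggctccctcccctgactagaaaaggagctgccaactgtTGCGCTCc
Of the 2 searched members of this list that were not called, 1 also held the element, SLC30A1, at -49 to -43. A match of this kind describes the sequence and does not show that the factor was bound.

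Many genes that make and recycle glutathione, thioredoxin and NADPH were higher at 25 µM hemin. Of 22 tested genes of this list, 10 were called higher, 0 lower and 12 neither, and 17 lay above both untreated arrays, with a median log2 difference of 0.63, against 0.00052 over all genes. The 10 called genes differed by 1.06 to 4.78, while the untreated arrays differed from each other by at most 0.74 in them. Of the 7 with several probe sets, 6 were called on every probe set.

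GCLM and GCLC encode the subunits of the enzyme that starts glutathione synthesis. GCLM was at 13.03 with hemin, against 10.65 and 10.48 in untreated cells, a log2 difference of 2.47 (standard error 0.20). GCLC, the catalytic subunit, was at 9.10 with hemin, against 8.21 and 7.87 in untreated cells, and 1 of its 2 probe sets was not called. SLC7A11, the cystine importer that feeds this pathway, was at 12.18 with hemin, against 10.61 and 10.26 in untreated cells, a difference of 1.74. GSR, which reduces oxidized glutathione, was at 10.81 with hemin and at 9.33 and 8.80 in untreated cells.

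The thioredoxin arm lay higher too. TXNRD1, thioredoxin reductase, was at 12.86 with hemin and at 11.02 and 10.98 in untreated cells (difference 1.86, standard error 0.17). TXN, thioredoxin itself, was at 13.99 with hemin and at 13.01 and 12.84 in untreated cells. SRXN1, sulfiredoxin, which repairs overoxidized peroxiredoxins, was at 10.33 with hemin, against 8.19 and 7.45 in untreated cells. In all of them the hemin value stood clear of both untreated values by more than these differed from each other.

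The called genes of this list also included ME1, NQO1 and OSGIN1. ME1, the malic enzyme whose promoter is shown above, was at 11.08 with hemin and at 8.84 and 8.71 in untreated cells (difference 2.30, standard error 0.18). NQO1, the quinone reductase, was at 12.20 with hemin and at 9.98 and 9.50 in untreated cells (difference 2.47, standard error 0.32). OSGIN1, an oxidative stress-induced growth inhibitor and the other gene with the element above, was at 7.84 with hemin and at 3.06 on both untreated arrays. Since both untreated values were under 5, only the height above that minimum, 2.84, can be read as measured, and the fitted 4.78 rests on dim values. The pentose phosphate enzymes, which also supply NADPH, were not called, with PGD higher by 0.19, TALDO1 by 0.38, and TKT at 12.47 with hemin, between 12.85 and 12.40 in untreated cells. The members below both untreated arrays were GSS, which completes glutathione synthesis, at 10.64 with hemin and at 11.16 and 10.97 in untreated cells, and GPX4, the lipid peroxidase, at 12.40 with hemin and at 13.03 and 12.97 in untreated cells.

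Detoxification genes were higher too. Of 15 tested, 8 were called higher and 0 lower, with a median difference of 0.75, and 11 lay above both untreated arrays. They included the aldo-keto reductases, which reduce aldehydes, ketones and steroids. AKR1C2 was at 13.84 with hemin and at 11.65 and 11.28 in untreated cells. AKR1C1 was at 13.80 with hemin and at 12.09 and 11.47 in untreated cells, and AKR1C3 at 11.70 with hemin and at 9.63 and 9.54 in untreated cells. These genes are near-identical copies whose probes can share transcripts, so the split between them is uncertain. A probe set assigned to both AKR1C2 and AKR1C1 was at 11.51 with hemin, against 6.98 and 6.50 in untreated cells, a difference of 4.77.

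CYP3A5, a cytochrome P450 of drug metabolism, was at 8.42 with hemin, 3.42 above the minimum of 5, while both untreated values lay under it at 4.53 and 4.02. The other 4 called genes differed by less. EPHX1, epoxide hydrolase, was at 7.10 with hemin and at 6.33 and 5.41 in untreated cells. ABCC1, an exporter of glutathione conjugates, was at 9.63 with hemin and at 8.73 and 9.03 in untreated cells, and 1 of its 2 probe sets was not called. MGST1, a membrane glutathione transferase, was at 11.96 with hemin and at 11.29 and 11.32 in untreated cells, called on all 4 of its probe sets. PTGR1 was under 5 on all 3 arrays, so its call has no measured level behind it.

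Among the regulators of these genes, 2 of 9 were called higher and 0 lower, with a median of 0.04. SQSTM1, an autophagy receptor that binds the NRF2 inhibitor KEAP1, was at 10.77 with hemin and at 9.62 and 9.11 in untreated cells (difference 1.40). MAFG, a small MAF partner, was at 7.36 with hemin and at 6.37 and 6.46 in untreated cells. NFE2L2, which encodes NRF2, was at 11.74 with hemin and at 12.07 and 11.75 in untreated cells, a difference of -0.17. BACH1 was at 10.27 with hemin, above 9.72 and 9.50 in untreated cells, and just inside the 1.5-fold rule. KEAP1 lay between its untreated values. The mRNA of NRF2 itself lay close to the untreated pair, while many of the genes it is known to control lay above theirs. Whether NRF2 or BACH1 acted on these genes was not tested.

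Heme and iron handling showed a smaller shift in these arrays. Of 18 tested genes, 3 were called higher and 0 lower, with a median of 0.33. SLC40A1, ferroportin, the cellular iron exporter, was at 12.54 with hemin and at 11.29 and 11.31 in untreated cells (difference 1.23, standard error 0.17). SLC48A1, the heme transporter HRG1, was at 8.61 with hemin and at 7.71 and 7.44 in untreated cells. ABCB6, a porphyrin transporter, was at 8.38 with hemin and at 7.26 and 6.66 in untreated cells. All 3 are transporters. Ferritin light chain, FTL, was at 15.05 with hemin and at 14.75 and 14.64 in untreated cells, and the transferrin receptor TFRC at 13.74 with hemin and at 13.56 and 13.69 in untreated cells, and neither was called. HMOX1 and FTH1, heme oxygenase and ferritin heavy chain, were not analysed here.

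Of 11 heme synthesis genes, 1 was called higher. It was PPOX, the enzyme before the last step, at 9.57 with hemin and at 8.81 and 8.48 in untreated cells, while its other probe set, under 5 on all 3 arrays, differed by 0.08. ALAS1, the first enzyme in most tissues, was at 8.78 with hemin and at 8.95 and 9.33 in untreated cells. ALAS2, the erythroid form, was at 6.60 with hemin, between 6.63 and 5.26 in untreated cells.

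Heat shock chaperones lay higher as well. Of 22 tested genes, 9 were called higher and 1 lower, 19 lay above both untreated arrays, and the median difference was 0.49. DNAJB4, a J-domain co-chaperone, was at 9.71 with hemin and at 7.29 and 6.96 in untreated cells (difference 2.59, standard error 0.26). HSPH1, a nucleotide exchange factor of the HSP70 family, was at 11.34 with hemin and at 9.85 and 9.75 in untreated cells. CHORDC1, an HSP90 co-chaperone with the triple element above, was at 12.37 with hemin and at 10.91 and 11.23 in untreated cells. DNAJA1, another J-domain protein, was called on both of its probe sets, by 1.06 and 1.14.

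DNAJB1, a J-domain partner of HSP70, was at 10.69 with hemin and at 9.71 and 9.50 in untreated cells. BAG3, the co-chaperone of selective autophagy, was at 10.37 with hemin and at 9.39 and 9.38 in untreated cells. HSPE1, the mitochondrial HSP10, was at 14.32 with hemin and at 13.60 and 13.23 in untreated cells. In CRYAB, a small heat shock protein, and in HSPA1L the untreated level was under the minimum. CRYAB was at 6.62 with hemin, against 4.65 and 4.61 in untreated cells, and HSPA1L at 6.22 with hemin, against 4.40 on both untreated arrays. The stress-induced HSP70 genes HSPA1A and HSPA1B are copies of each other and were measured on shared probe sets. The 3 such probe sets were higher by 2.34 to 2.47, and all were called. The brightest was at 13.15 with hemin, against 10.41 and 11.01 in untreated cells.

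SERPINH1, the collagen chaperone HSP47, was the member called lower, at 8.92 with hemin and at 10.10 and 9.63 in untreated cells. HSF1, the transcription factor of the response, was at 7.39 with hemin, against 8.35 and 7.64 in untreated cells. HSPA6, a strictly inducible HSP70 gene, was under 5 on all 3 arrays. The group was therefore not uniform, and the cytosolic HSP90 gene HSP90AB1 differed by only 0.11.

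The proteasome, the protease of ubiquitin-tagged proteins, showed small differences in 1 direction. Of 28 tested subunits and assembly factors, 27 lay above both untreated arrays and 1 between them, against 33% above both over all genes. The median difference was 0.46, and the range ran from 0.14 to 0.79. Only 5 passed the 1.5-fold rule. PSMB7, a catalytic subunit, was at 13.30 with hemin and at 12.47 and 12.56 in untreated cells (difference 0.79, standard error 0.17). PSMD12, a lid subunit, was at 12.16 with hemin and at 11.44 and 11.39 in untreated cells, and the base ATPase PSMC2 at 13.42 with hemin and at 12.65 and 12.75 in untreated cells. PSMD12 and PSMC2 were each called on 1 probe set only, with others differing by as little as 0.28 and 0.05. No proteasome gene was over 2-fold above the nearer untreated array.

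**Figure D1:**
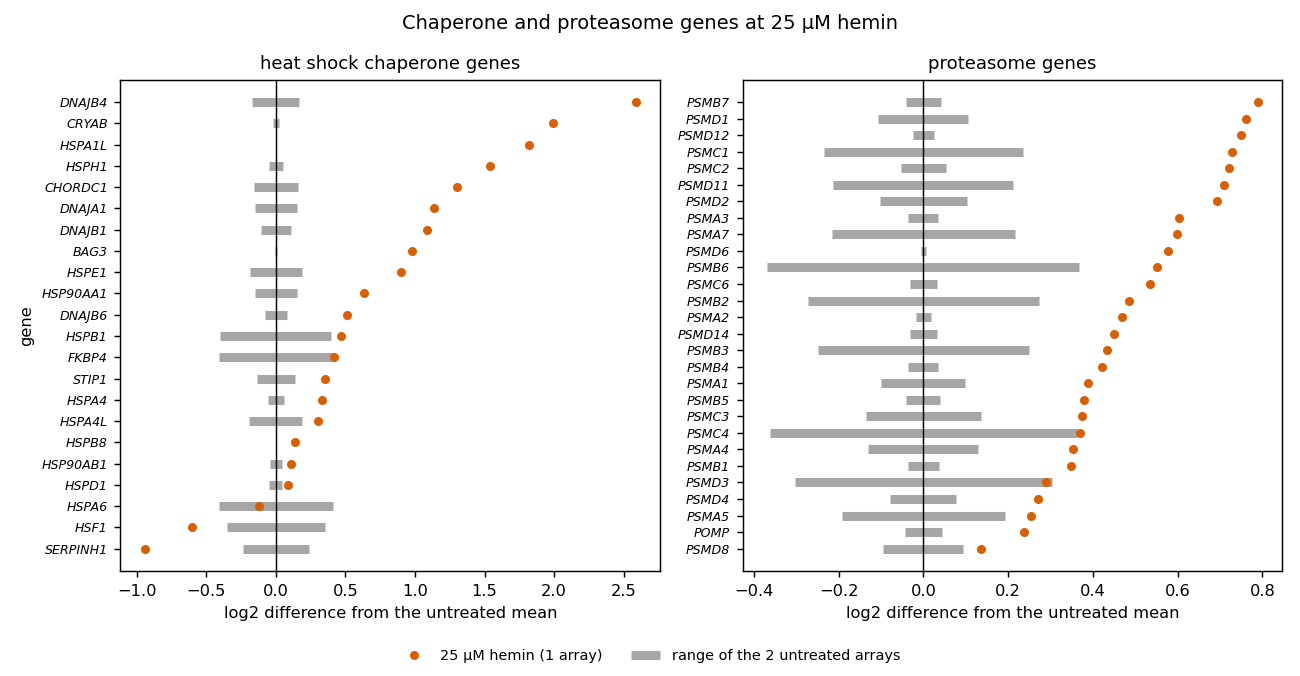
Log2 difference from the untreated mean (horizontal axis) of the tested heat shock chaperone (left) and proteasome (right) genes (vertical axis) at 25 µM hemin (orange points, 1 array), with the range of the 2 untreated arrays as a grey bar. The horizontal scales differ, with chaperone values from -0.94 to 2.59 and proteasome values from 0.14 to 0.79, and 27 of 28 proteasome points lie beyond the right end of their bar.

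Of 20 autophagy and lysosome genes, 4 were called higher and 2 lower, with a median of -0.02. CTSL, the lysosomal protease cathepsin L, was at 12.08 with hemin and at 10.16 and 10.33 in untreated cells (difference 1.84, standard error 0.19). GABARAPL1, an autophagosome protein of the ATG8 family, was at 7.55 with hemin and at 6.07 and 6.06 in untreated cells. The others higher were SQSTM1 and GLA, the lysosomal alpha-galactosidase. WIPI1, an early autophagosome factor, was at 9.01 with hemin and at 10.09 and 10.73 in untreated cells, the opposite order.

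Globin genes were higher at 25 µM hemin, and they also differed widely between the untreated arrays. Of 7 tested genes of the list, 5 were called higher and 0 lower, with a median difference of 2.01. Against untreated replicate 1 alone the median of the list was 1.06, and against untreated replicate 2 alone it was 2.96. The untreated arrays differed by 1.63 at the median of the list, against 0.31 over all genes. BGLT3, a noncoding transcript that lies between the beta-like globin genes, was at 8.48 with hemin and at 5.33 and 5.15 in untreated cells (difference 3.24, standard error 0.20). HBQ1, theta globin, was at 9.34 with hemin and at 8.16 and 8.12 in untreated cells (difference 1.20, standard error 0.17). In these genes the untreated values lay close together.

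HBD, delta globin, was at 12.22 with hemin, against 10.19 and 8.01 in untreated cells, a difference of 3.11 with a standard error of 1.28. HBZ, the embryonic zeta globin, was at 15.77 with hemin, against 14.71 and 12.05 in untreated cells (difference 2.39, standard error 1.55). HBB, beta globin, was at 10.41 with hemin, against 9.36 and 7.45 in untreated cells, and was called on 2 of its 3 probe sets. HBE1 lay only 0.28 above the nearer untreated array. The 6 probe sets common to both alpha globin genes were higher by 1.15 to 1.38 than the untreated mean, yet by only 0.20 to 0.29 than untreated replicate 1, and none was called. The 3 probe sets common to both gamma globin genes differed by 0.18 to 0.26. With hemin they lay at 15.44 to 15.67, near that array's highest value of 15.88, which leaves little room to read a rise. AHSP, the alpha globin chaperone, was at 2.25 with hemin and at 2.44 and 2.25 in untreated cells, under the minimum throughout.

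Among the 18 erythroid transcription factors tested, 0 were called higher and 2 lower, where the background is 4.28% and 3.88%. A count of 0 among so few genes is near that background. The median was -0.30, and 9 lay below both untreated arrays, against 30.4% of all genes. GATA2, a factor of progenitors that falls as red cells mature, was at 8.87 with hemin and at 10.02 and 10.03 in untreated cells (difference -1.16, standard error 0.17). On its other probe set GATA2 was not called, at -0.67. KLF13 was at 7.92 with hemin and at 8.88 and 8.68 in untreated cells. GATA1, the main erythroid factor, was at 9.19 with hemin and at 10.42 and 9.72 in untreated cells, and LMO2, its partner, at 10.51 with hemin and at 11.82 and 11.08 in untreated cells. Both lay below the untreated pair without passing the rule. KLF1, an activator of adult globin, was at 9.97 with hemin, between 10.96 and 9.58 in untreated cells.

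Of 22 red cell membrane and surface genes, 3 were called higher and 2 lower, with a median of 0.07. ERMAP, an erythroid membrane protein, was at 7.23 with hemin and at 6.31 and 5.78 in untreated cells, and the skeletal protein ADD2 at 10.38 with hemin and at 9.66 and 9.14 in untreated cells. The probe sets of ADD2 disagreed, from -0.47 to 1.59, with 3 of 4 called higher. RHD, of the Rh blood group, was higher by 0.91. The Kell antigen gene KEL was at 5.79 with hemin and at 6.76 and 6.54 in untreated cells, and EPOR, the erythropoietin receptor, at 5.77 with hemin and at 6.90 and 6.63 in untreated cells, though EPOR was called on 1 of 4 probe sets.

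**Figure D2:**
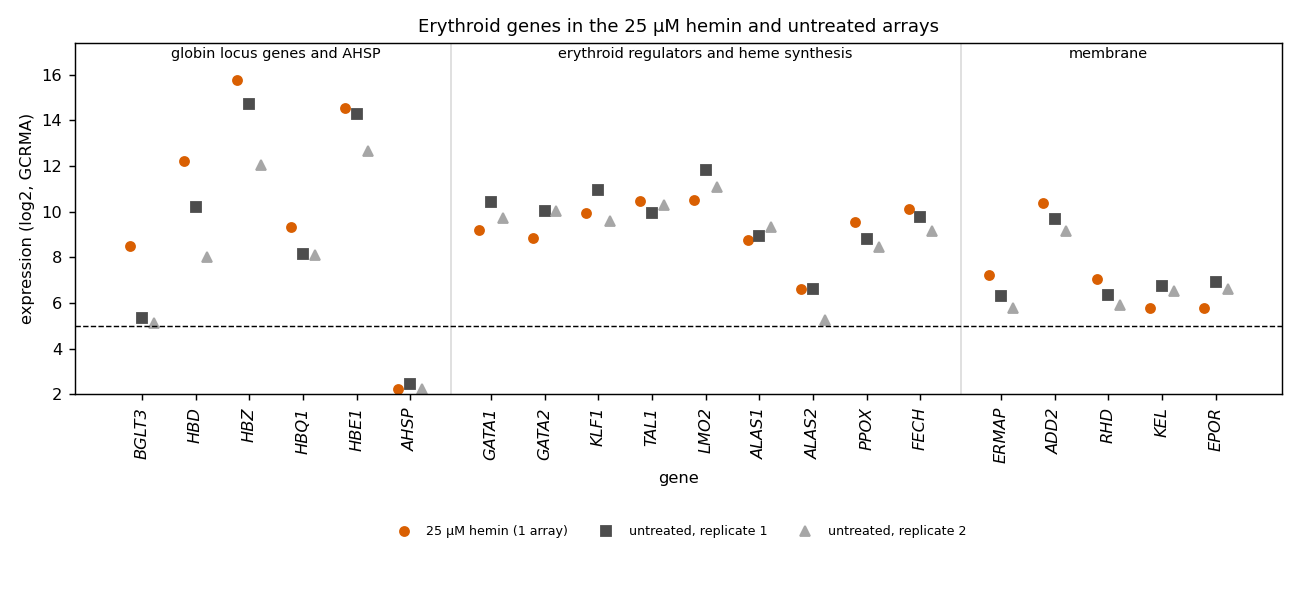
Expression on the log2 scale (vertical axis, GCRMA) of erythroid genes (horizontal axis) on the 25 µM hemin array (orange circles) and untreated replicates 1 (dark squares) and 2 (light triangles), with 1 array per point and a dashed line at the minimum of 5. The untreated points of HBZ lie 2.66 apart and those of HBQ1 0.03 apart, and GATA2 is the factor farthest below both.

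Metallothioneins, small proteins that bind zinc and copper, were lower at 25 µM hemin. Of 8 tested genes of this list, 5 were called lower and 0 higher, with a median difference of -1.03. MT2A was at 10.19 with hemin and at 11.35 and 10.92 in untreated cells. MT1X was at 8.63 with hemin and at 10.64 and 9.59 in untreated cells, and MT1F at 7.42 with hemin and at 8.93 and 8.86 in untreated cells (difference -1.47, standard error 0.17). MT1G was at 6.96 with hemin and at 8.83 and 7.91 in untreated cells, and MT1H at 8.39 with hemin and at 9.70 and 9.29 in untreated cells. In each the hemin value was the lowest of the 3, which the call itself requires.

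These genes are close copies on chromosome 16, so their probe sets may read each other's transcripts and are not 5 independent measurements. MT1E was not called on its brightest probe set and was called lower on its other one. MTF1, the zinc-sensing activator of these genes, was at 6.46 with hemin and at 6.30 and 6.34 in untreated cells, and the zinc exporter SLC30A1, another gene MTF1 controls, differed by 0.23. SLC30A10, a manganese exporter, was at 6.01 with hemin and at 3.26 on both untreated arrays. It lay 1.01 above the minimum with hemin, and its p, among the 5 smallest, rests on identical untreated values under that minimum.

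Some megakaryocyte and platelet genes were lower. Of 10 tested, 5 were called lower and 1 higher, with a median of -0.78, and 3 of those called lower had a value under 5. With 5 or more required on all 3 arrays 2 were called lower, and with no filter on dim probe sets the median was -0.12. RAB27B, which acts in platelet granules, was at 7.04 with hemin and at 8.96 and 9.62 in untreated cells (difference -2.26, standard error 0.42). ITGA2B, the platelet integrin alpha IIb, was at 5.65 with hemin and at 7.29 and 7.86 in untreated cells, and was called on all 3 of its probe sets. GP6, the platelet collagen receptor, was at 4.85 with hemin and at 6.80 and 6.62 in untreated cells. The other 2, CD9 and PPBP, lay under 5 with hemin, PPBP on all 3 arrays. TUBB1, the platelet beta tubulin, went the other way, at 8.67 with hemin and at 6.67 and 6.02 in untreated cells.

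Growth signalling genes leaned lower. Of 27 immediate early and MAP kinase feedback genes, 6 were called lower and 0 higher, with a median of -0.24. JUNB, an AP-1 subunit, was at 6.48 with hemin and at 8.66 and 7.44 in untreated cells. KLF10 was at 9.52 with hemin and at 10.50 and 10.98 in untreated cells, and IER2 at 11.65 with hemin and at 12.67 and 12.40 in untreated cells. The others were KLF2, DUSP5 and NR4A1, with DUSP5 and NR4A1 under 5 on the hemin array. Of 12 STAT5 output genes, 2 were called lower. ID3, an inhibitor of helix-loop-helix factors, was at 5.94 with hemin and at 7.49 and 8.15 in untreated cells, and SOCS3, a feedback inhibitor of cytokine signalling, at 9.24 with hemin and at 10.56 and 10.34 in untreated cells, called on 2 of its 3 probe sets.

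The stem cell factor receptor KIT was at 7.37 with hemin and at 9.61 and 9.13 in untreated cells. Of the called genes at 6 or more on both untreated arrays, the 15 with the largest lower differences were led by ATP2A3, a calcium pump of the endoplasmic reticulum, at 8.39 with hemin and at 11.37 and 10.93 in untreated cells (difference -2.76, standard error 0.30) and called on all 4 of its probe sets. Dimmer genes had larger differences, such as MME at -3.61, which was under 5 with hemin. SERPINB9, the granzyme B inhibitor, was at 5.25 with hemin and at 7.71 and 7.72 in untreated cells (difference -2.47, standard error 0.17), but its other probe set differed by only -0.22. NAV1, called on all 5 of its probe sets, was at 5.99 with hemin and at 8.25 and 8.37 in untreated cells. IGFBP4, which binds insulin-like growth factors, was at 7.86 with hemin and at 11.08 and 9.68 in untreated cells. The cytoskeletal ZYX and the apoptosis-related PHLDA1 were lower by 1.94 and 2.30, with wide gaps between their untreated values, and PHLDA1 was called on 2 of 6 probe sets, the others reaching 0.26. The hemin value was under 5 in 6 of these 15 genes, among them PDGFA, FMNL3, CCDC68 and the glucocorticoid receptor NR3C1. PDGFA was called on 1 of 2 probe sets and FMNL3 on 1 of 3.

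Sterol synthesis genes leaned lower by small amounts. Of 17 tested, 13 lay below both untreated arrays, 3 were called lower and 0 higher, and the median was -0.38. MVK, mevalonate kinase, was at 6.09 with hemin and at 7.59 and 7.29 in untreated cells. SREBF2, which encodes the transcription factor of this pathway, was at 7.62 with hemin and at 8.69 and 8.60 in untreated cells (difference -1.03, standard error 0.18). MVK was called on 1 of 3 probe sets and SREBF2 on 2 of 3, the third differing by 0.03. MVD was under 5 with hemin. Of 17 genes of the unfolded protein response of the endoplasmic reticulum, 0 were called higher and 2 lower, HYOU1 at 9.70 with hemin and at 10.72 and 10.62 in untreated cells and PDIA4 at 8.13 with hemin and at 9.94 and 8.75 in untreated cells, PDIA4 being called on 1 of 2 probe sets.

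The amino acid response governed by ATF4, which the heme-regulated kinase EIF2AK1 can feed, stayed near the untreated level at this dose. Of 28 genes, 0 were called higher and 2 lower, with a median of -0.01. Those lower were PHGDH and SHMT2, enzymes of serine and one-carbon metabolism, by 0.80 and 0.69 on the log2 scale. ATF4 was at 13.05 with hemin and at 13.07 and 13.41 in untreated cells, and EIF2AK1 at 11.81 with hemin and at 11.79 and 11.56 in untreated cells. Of 17 cytosolic aminoacyl-tRNA synthetases, 26 mitosis genes and 18 ribosome biogenesis genes, 0 were called in either direction, where the background is 4.28% and 3.88%. Their medians were -0.04, 0.05 and 0.08.

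DNA replication genes were called about as often as all genes, with 1 of 33 called higher and 1 lower, 3.03% each, against 4.28% and 3.88%. The median was -0.11. In this list 17 genes lay below both untreated arrays and 5 above both, against 30.4% and 33% of all genes. The higher one, MCM5, a subunit of the replicative helicase, was at 13.15 with hemin and at 11.15 and 10.67 in untreated cells (difference 2.24, standard error 0.33), on both of its probe sets. No other gene of this list was called higher. In the RefSeq annotation MCM5 is the direct neighbour of HMOX1 on chromosome 22, and whether its probes also read transcripts of that gene, so that the value is not that of MCM5 alone, was not tested. The gene called lower was LIG1, DNA ligase 1, by 0.62 on the log2 scale. CDT1 was not called on its brightest probe set but was called lower on its other one, at -1.45.

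Of 28 glycolysis and low oxygen genes, 4 were called higher and 2, SLC2A3 and ALDOC, lower, with a median of -0.06. In this list 7 genes lay above both untreated arrays and 9 below both. SLC2A1, the glucose transporter GLUT1, was at 8.01 with hemin and at 6.77 and 6.88 in untreated cells, and BNIP3, a mitophagy receptor, was higher by 0.79. ADM and EGLN3 were higher from untreated values under 5, and EGLN3 was called on 1 of its 2 probe sets, the other differing by -0.03. SLC2A3, the glucose transporter GLUT3, went the other way, at 10.63 with hemin and at 12.12 and 11.77 in untreated cells. The 2 glucose transporters thus lay on opposite sides of the untreated pair.

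NSD2, a histone methyltransferase, was at 8.47 with hemin and at 8.99 and 8.68 in untreated cells, a difference of -0.37 with a standard error of 0.25. Its 6 kept probe sets disagreed, from -0.95 to 0.99, and 1 of them was called higher, so these arrays give no single direction for it. BRCA1, a ubiquitin ligase of DNA repair, was at 9.91 with hemin, between 9.71 and 10.24 in untreated cells. A list of NSD2, BRCA1, their partners and genes the paper names beside them had 14 tested genes. On their brightest probe set 0 were called, which for so few genes is near the background of 4.28% and 3.88%. In this list 8 genes lay below both untreated arrays and 0 above both, against 30.4% and 33% of all genes. The lysosomal nuclease DNASE2 was at 8.33 with hemin, against 8.72 and 8.67 in untreated cells, and PIM1 was at 11.67 with hemin, against 11.95 and 11.71 in untreated cells. VEGFA, BCL6 and FOS lay between their untreated values. FOS was near or under the minimum of 5, at 4.99 with hemin and at 5.05 and 3.78 in untreated cells. CD36 was under 5 on all of its probe sets.

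The largest higher differences of all genes mostly started from dim levels. Of the 15 named, 10 had both untreated values under 5 and 2 had 1 of them under 5. In the other 3, all from the beta-like globin locus, every value was at 5 or more. LY96, the MD-2 partner of the endotoxin receptor TLR4, was at 8.08 with hemin and at 2.25 and 2.70 in untreated cells, 3.08 above the minimum. GPR55, a lipid-sensing receptor, was at 6.03 with hemin and at 2.30 and 2.36 in untreated cells. EGF, the epidermal growth factor, was at 6.79 with hemin and at 3.60 and 3.96 in untreated cells. The noncoding LINC00942 was at 7.81 with hemin and at 4.48 on both untreated arrays, and NT5DC4 at 7.99 with hemin and at 3.85 and 2.74 in untreated cells. AHNAK, a giant scaffold protein, was at 8.25 with hemin, but at 3.85 and 6.44 in untreated cells, which differed from each other by 2.59. Over all genes, 64 of the 423 called higher had both untreated values under 5, and 88 of the 384 called lower had a hemin value under 5.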

How the data were processed

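The authors deposited log2 expression values made with GCRMA from Affymetrix arrays, which corrects background by probe sequence and scales the arrays together, which would take out any change common to most genes. No software version is stated. The median of each of the 3 arrays lay between 6.75 and 6.78, and 66.1% to 66.7% of probe sets were at 5 or more. Arrays give no read depth, and their number, 1 against 2, limits the precision.

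Of 27306 probe sets, 22858 had 1 gene in the platform annotation, 1164 had several and 3284 were not listed. Symbols were updated through Entrez identifiers. The 17615 probe sets of 1 gene that reached 5 on any of the 6 K562 arrays were used, and the brightest stood for its gene, giving 9890 genes. Of the 4695 genes with several kept probe sets, 9 had 1 called higher and another called lower.

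The 25 µM array was compared with both untreated arrays at 1.5-fold of the nearer one, and with limma 3.58.1 in R 4.3.3 (lmFit and eBayes on the 6 K562 arrays, Benjamini-Hochberg adjustment over all genes, threshold 0.05). The script was tested on simulated data. Of 555 entries in 26 gene lists, 451 were tested. Named genes were the 15 largest differences each way with a log2 value of at least 6 in the higher condition, up to 4 members of each list, fixed genes of heme biology and of the study, and the 5 with the smallest p. Other called list members were added after their values were seen, and not every gene the rule gives is printed. Members and lists were chosen with earlier results of these data known. The alternatives were other filters, scalings, probe set rules and fold rules, leaving out each untreated array, and the methods' t-test.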

Additional observations from a re-analysis of the deposited data

How the results depend on the processing

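No paired analysis was possible because the labels give the groups no shared replicate numbers. Among the genes named by rule and the list medians, no value past 1.5-fold changed direction under the alternatives run. The other called genes were not followed. The small medians of the ATF4, tRNA synthetase, glycolysis, ribosome biogenesis and autophagy lists changed sign when 1 untreated array was left out. The count of genes called depended most on the untreated arrays: against 1 untreated array at a time it ran from 700 to 1318 higher and from 949 to 1381 lower, the larger counts without untreated replicate 2. At 1.5-fold of the untreated mean it was 745 higher and 890 lower with the value beyond both arrays and 782 and 957 without that demand, and at 2-fold of the nearer array 156 and 106. Against 1 untreated array at a time, proteasome calls ran from 8 to 11, immediate early calls from 7 to 12, and the medians from 0.17 to 0.25 (heme breakdown and iron), 0.048 to 0.30 (NRF2 and BACH1 regulators), 0.49 to 0.81 (heat shock), -0.43 to -0.15 (cholesterol) and -0.27 to -0.072 (DNA replication). Proteasome calls were 9 under both rules on the mean, and immediate early calls 10 under the mean alone. At 2-fold there remained 4 detoxification, 5 heat shock, 3 megakaryocyte, 1 metallothionein, 1 immediate early and 0 proteasome calls. The megakaryocyte and platelet median was -1.51 with a value of 5 on 1 of the 3 arrays and -0.12 with no filter, and 2 of its genes were called with 5 on all 3, where the median of the NRF2 and BACH1 regulators was 0.35. With no filter more genes entered the test and more had an unadjusted limma p under 0.05, a count not set against chance. The methods' t-test called 167 genes after adjustment, and in 166 of these the untreated arrays were within 0.001 of each other, which leaves next to no spread to divide by. With 1 hemin array, the spread between hemin-treated cultures is unknown, and genes under 5 have no measured fold.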
